A study of Rattus norvegicus with 48 samples.

Results

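Transcript levels in rat brain cortex were compared between 48 h and 24 h after a single oral dose of 3 mg/kg RDX. The 48 h group (male Sprague-Dawley rats, 3 mg/kg RDX) had 3 arrays and the 24 h group (male Sprague-Dawley rats, 3 mg/kg RDX) had 3 arrays, and they were picked by the tissue, dose and time in their titles, as a pair of groups with like RNA integrity. They are 6 of the 48 arrays of the series, which also covers liver, a dose of 18 mg/kg and tissue taken at 0 and 4 h. Every rat in both groups was given pure RDX in a gel capsule at a dose set below the one that causes seizures. The labels give the animals' housing in pairs and a light and dark cycle, but no age and no clock time of sampling, and they name no arm given an empty capsule. Separate animals are not stated for the arrays of either group, so p-values measure only the spread between these arrays.

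RDX is a nitramine explosive that enters the brain and blocks the chloride channel of the GABA type A receptor, the main inhibitory receptor of the cortex. Loss of that inhibition excites cortical neurons, and excited neurons switch on immediate early genes such as Fos and Arc within minutes to hours. The comparison of 48 h with 24 h asks which transcripts differed between the second day after the dose and the first. In bulk tissue, fewer cells of a type and less RNA per cell cannot be told apart.

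The neuronal identity of the tissue was clear in all 6 arrays. Snap25, a synaptic vesicle fusion protein, had log2 levels of 13.17, 13.06 and 13.17 at 48 h and 13.12, 13.11 and 13.07 at 24 h, while the liver arrays lay between 4.51 and 6.58. Slc17a7, the vesicular glutamate transporter of cortical projection neurons, had 9.40, 9.79 and 9.95 at 48 h and 9.80, 9.98 and 9.88 at 24 h. RNA integrity was part of the choice of the groups, so its likeness is no finding. The log2 gap between the 3' and 5' actin control probes, which widens as RNA degrades, was 2.11, 2.19 and 2.73 at 48 h and 2.18, 2.02 and 2.08 at 24 h. The widest gap belonged to replicate 3 at 48 h. Arrays differed in genes that mark other tissues and brain regions. Replicate 1 at 48 h had the highest level of liver transcripts, with a mean of 7.53 over 14 hepatocyte genes against 5.21 to 5.76 on the other 5 arrays. Replicate 3 at 24 h had the highest levels of thalamic, choroid plexus and photoreceptor-type genes, described below. The counts of called probe sets, the medians of these marker lists and the light-transduction genes are given with and without the array they rest on.

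No transcript passed the test between 48 h and 24 h. In limma, 0 of 31042 probe sets had an adjusted p under 0.05, the smallest adjusted p was 0.162, and 835 probe sets (2.69%) had an unadjusted p under 0.05. The differences were also small. The median absolute log2 difference was 0.068, 95% of probe sets lay within 0.24 of 0, and 26 probe sets differed by more than 2-fold. The 95% interval of the difference, taken from limma without adjustment, lay inside 2-fold in either direction for 99.1% of probe sets and inside 1.5-fold for 95.1%. Simulated differences of 1 log2 unit were called by the same fit in 82.1% of cases and those of 0.5 in 19.4%. In the simulation 67 probe sets were changed at each of these sizes. The adjusted p depends on how many probe sets change, and recovery with fewer changed was not tested. With replicate 1 at 48 h left out, 1 probe set was called and 1275 had an unadjusted p under 0.05. With replicate 3 at 24 h left out, 1 other was called and 2699 had one. With replicate 2 at 48 h left out, 2 were called, Fam111a among them, and with replicate 2 at 24 h left out 0 were called and 551 had an unadjusted p under 0.05. With replicate 1 at 48 h and replicate 3 at 24 h left out together, an alternative added after the data were seen, 9 were called (6 higher and 3 lower at 48 h) and 3572 had an unadjusted p under 0.05.

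**Figure D1:**
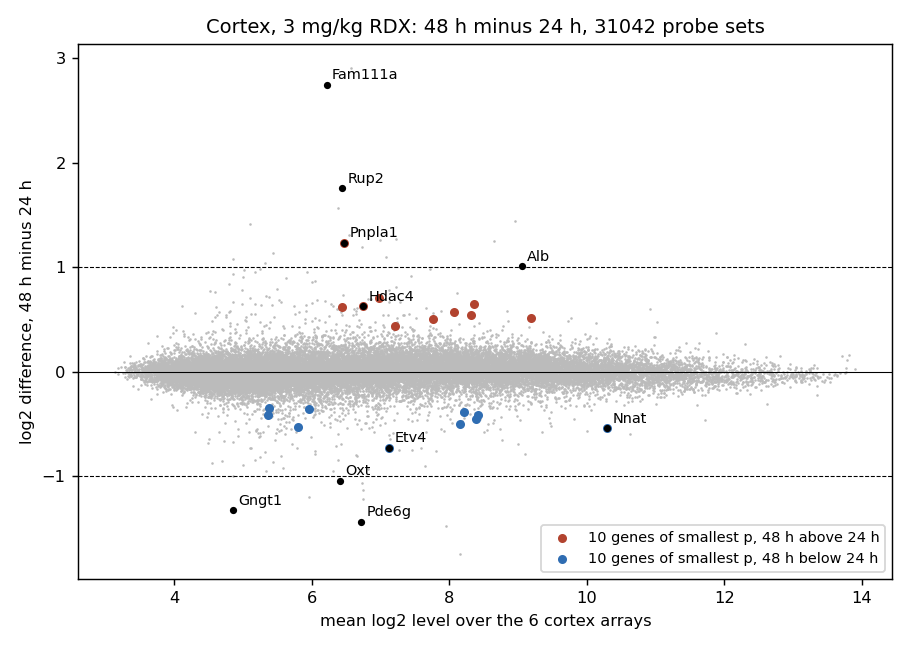
Each grey point is a probe set, placed by its mean log2 level over the 6 cortex arrays (horizontal) and by its log2 difference, 48 h minus 24 h (vertical). Dashed lines mark 2-fold, coloured points are the 10 genes of smallest p on each side, and labelled genes are those described in the text; all but 26 of 31042 points lie between the dashed lines.

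With every array included, pairs of different times were on average no further apart than pairs of the same time. The SD of the log2 differences over all probe sets ranged from 0.206 to 0.277 (mean 0.244) over the 9 pairs of a 48 h and a 24 h array. It ranged from 0.227 to 0.255 (mean 0.244) over the 3 pairs within 48 h and from 0.195 to 0.31 (mean 0.257) over the 3 pairs within 24 h. The mean over pairs of different times was thus lower than the mean over pairs of the same time, by 0.00695 (exact one-sided permutation p = 0.6 over 20 splits, where the smallest possible p is 0.1). The widest pair within 24 h, replicates 1 and 3, had 205 probe sets more than 2-fold apart. Both 24 h pairs with replicate 3 were wide, at 0.31 and 0.266, while replicates 1 and 2 at 24 h were the closest pair of all, at 0.195. The within 24 h mean thus leans on replicate 3, and the comparison was not tested without that array.

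**Figure D2:**
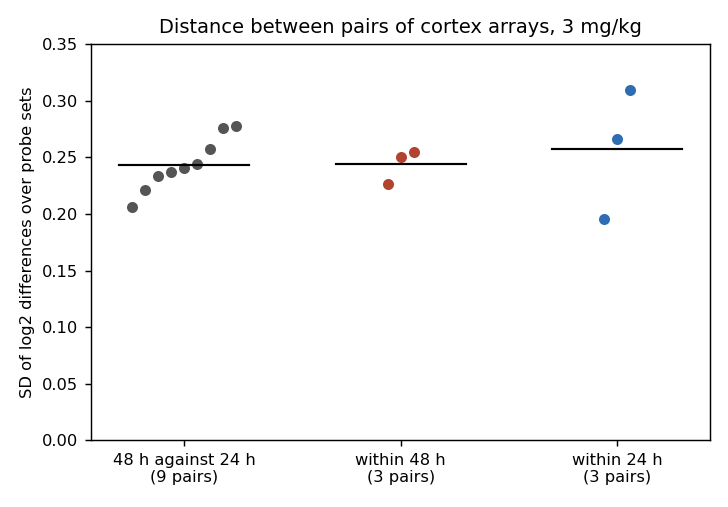
Each point is a pair of cortex arrays of the 3 mg/kg arm, and its height is the SD of the log2 differences between the 2 arrays over 31042 probe sets; lines are means. The pairs of different times (left) lie between 0.206 and 0.277, inside the range of the pairs within 24 h (right).

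The genes with the smallest p on the higher side at 48 h included a histone deacetylase, a collagen chain and an inhibitor of apoptosis. Over all genes, 564 of 14217 genes (3.97%) had all 48 h arrays above all 24 h arrays and 493 (3.47%) had all of them below. Hdac4, a class IIa histone deacetylase that represses transcription in neurons and muscle, had 6.85, 7.15 and 7.17 at 48 h and 6.34, 6.37 and 6.58 at 24 h, a log2 difference of 0.63 (95% interval 0.36 to 0.89, limma adjusted p = 0.89). Col6a1, a chain of collagen VI in the extracellular matrix, had 8.54, 8.71 and 8.81 at 48 h and 8.06, 8.14 and 7.92 at 24 h, a difference of 0.65 (interval 0.41 to 0.88, limma adjusted p = 0.61). Neither passed, although the groups did not overlap for either gene. Birc2, an inhibitor of apoptosis, had 8.45, 8.46 and 8.14 at 48 h and 7.64, 7.72 and 7.98 at 24 h, with a difference of 0.57 (interval 0.28 to 0.86). Spg7, a subunit of a mitochondrial inner membrane protease, had 7.24, 7.54 and 7.49 at 48 h and 6.92, 7.0 and 7.02 at 24 h. Its other probe set differed by -0.08, so the gene's probe sets gave different values. Pnpla1, a lipase-family enzyme of skin ceramide synthesis, had the widest difference of the 10 at 1.23 (interval 0.70 to 1.77), with 6.80, 6.78 and 7.66 at 48 h and 6.04, 5.99 and 5.51 at 24 h. The other genes of smallest p on this side were Mfap3, Sprr1a, Cdpf1, Catsperz and Dbndd1, with differences of 0.50 to 0.70, and Mfap3 and Dbndd1 had second probe sets at 0.15 and -0.12.

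On the lower side at 48 h, the genes of smallest p included neuronatin and an ETS transcription factor. Nnat, neuronatin, an endoplasmic reticulum proteolipid of developing and adult neurons, had 10.21, 9.77 and 10.07 at 48 h and 10.54, 10.49 and 10.64 at 24 h, a log2 difference of -0.54 (interval -0.82 to -0.26). Etv4, an ETS transcription factor downstream of growth factor signalling, had 6.69, 6.71 and 6.86 at 48 h and 7.43, 7.19 and 7.82 at 24 h, a difference of -0.73 (interval -1.07 to -0.39), but its second probe set differed by -0.10. Every 48 h array lay below every 24 h array for both genes, and their limma adjusted p was over 0.9. Lhfpl3, a tetraspan membrane protein, had 8.09, 7.97 and 8.0 at 48 h and 8.37, 8.37 and 8.46 at 24 h. Ankrd63 had 8.25, 7.96 and 8.25 at 48 h and 8.51, 8.69 and 8.62 at 24 h. These are differences of -0.38 (interval -0.58 to -0.19) and -0.45 (interval -0.69 to -0.20), without overlap for either gene. Rd3l, Adamts9, Rpl39l1, Plcxd3, Prg2 and Bex4 completed this side with differences of -0.52 to -0.34. Prg2, the eosinophil major basic protein, stood near the bottom of the array's range, at 5.19, 5.21 and 5.21 at 48 h and 5.47, 5.57 and 5.61 at 24 h.

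The probe sets of smallest p were followed into the liver arrays of the same dose, which took no part in choosing them. The labels do not say whether cortex and liver arrays share animals, so the tissues may not be independent. Probe set 1391262_at, which the annotation assigns to several symbols and which therefore stays unnamed, had 7.06, 8.17 and 8.81 in cortex at 48 h and 5.08, 5.03 and 5.23 at 24 h (log2 difference 2.90, limma adjusted p = 0.162). In liver it had 6.91, 6.99 and 7.96 at 48 h and 5.59, 5.79 and 5.13 at 24 h. The 48 h arrays were above the 24 h arrays without overlap in both tissues. Probe set 1380407_at, one of a pair for C10h5orf15, had 7.35, 7.32 and 7.20 in cortex at 48 h and 8.76, 8.79 and 9.55 at 24 h (-1.75, limma adjusted p = 0.162). In liver it had 7.27, 6.30 and 7.50 at 48 h and 9.44, 8.89 and 10.2 at 24 h, again without overlap and on the same side as in cortex. The gene's other probe set differed by -0.32 in cortex. Probe set 1377082_at, which has no gene symbol, had 7.48, 7.45 and 7.59 in cortex at 48 h and 6.66, 6.68 and 6.83 at 24 h (0.79, limma adjusted p = 0.162). In liver it had 7.17, 7.95 and 7.62 at 48 h and 6.78, 6.66 and 7.04 at 24 h, also without overlap. Of the 100 probe sets of smallest p in cortex, 59 had the same sign in liver, against 54.6% of all probe sets, and 18 did not overlap there in the same direction. Over all probe sets, 6.14% had every 48 h liver array above every 24 h one, and 6.21% had every one below. Levels of the probe sets printed by number also varied outside these groups. Over all 24 cortex arrays 1391262_at lay below a log2 level of 6 on 15 arrays and reached 8.81, and at 0 h it had 5.64, 5.34 and 5.17 in the 3 mg/kg arm and 7.98, 7.95 and 7.91 in the 18 mg/kg arm. At 0 h 1380407_at had 8.78, 6.24 and 7.66 in cortex in the 3 mg/kg arm and 8.74, 7.38 and 8.68 in the 18 mg/kg arm. In liver at 0 h, in the same order of replicates, it had 7.53, 5.85 and 5.03 in the 3 mg/kg arm and 9.53, 5.74 and 9.70 in the 18 mg/kg arm. Whether same-numbered cortex and liver arrays share a level was not tested. Probe set 1377082_at ranged from 6.66 to 8.51 over the 24 cortex arrays. In cortex at 18 mg/kg it had 7.06, 6.99 and 7.03 at 48 h and 7.44, 7.82 and 8.51 at 24 h. That is the reverse order to 3 mg/kg, also without overlap. There 1391262_at had 5.28, 5.07 and 7.96 at 48 h and 6.92, 5.28 and 7.79 at 24 h. Probe set 1380407_at had 9.54, 6.92 and 9.73 at 48 h and 7.36, 9.67 and 8.54 at 24 h. The times thus overlapped for 1391262_at and 1380407_at at 18 mg/kg.

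Fam111a, a nuclear protease that acts at stalled replication forks, had the largest difference of any named gene and was chosen after its values were seen. It had 8.59, 5.08 and 9.09 in cortex at 48 h and 4.89, 4.70 and 4.93 at 24 h, a log2 difference of 2.74 (interval 0.84 to 4.64, limma adjusted p = 0.99992). The gene was at either a high or a low level: of the 24 cortex arrays 8 lay above 8 and 16 below 6, with none between, and high arrays occurred at 0, 4, 24 and 48 h. In liver at 3 mg/kg it had 6.60, 6.39 and 10.4 at 48 h and 7.28, 5.99 and 6.44 at 24 h. Without replicate 2 at 48 h, the low array, its limma adjusted p was 0.000113. That fit drops the only 48 h array at the low level of a gene already picked by its values. Its p is therefore no evidence of a difference between the times. Over all probe sets the 2 tissues shared little: of the 1099 with every 48 h cortex array above every 24 h one (3.54% of all), 91 did the same in liver (8.28%, against 6.14% of all probe sets in liver), which is 4.77% of the 1907 in liver. In the lower direction it was 74 of 1049 in cortex (3.38% of all probe sets had that order there; 7.05%, against 6.21% of all probe sets), which is 3.84% of the 1929 in liver.

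GABA receptor genes, which include the target of RDX, differed little between the times, with narrow intervals. Of 12 measured type A receptor subunits, 0 were called by limma, 1 had an unadjusted p under 0.05, 5 were above 0, and their median was -0.01 against -0.0019 over all probe sets. Gabrb2, a beta subunit of the common synaptic receptor, had 11.37, 11.49 and 11.30 at 48 h and 11.39, 11.25 and 11.52 at 24 h (0.00, interval -0.23 to 0.23). Gabrd, the subunit of extrasynaptic receptors, had 9.71, 9.85 and 10.03 at 48 h and 9.67, 9.97 and 9.90 at 24 h (0.01, interval -0.25 to 0.28). Both intervals lie well inside 2-fold; these 2 genes and Slc12a5 were picked with their values in view. Gabre, a subunit that was dim in these arrays, had 4.54, 4.44 and 4.57 at 48 h and 4.80, 4.77 and 4.76 at 24 h, and its second probe set differed by -0.14. Gad1, which makes GABA from glutamate, had 12.45, 12.35 and 12.41 at 48 h and 12.54, 12.47 and 12.35 at 24 h (-0.05, interval -0.26 to 0.15). Slc12a5, the chloride exporter that makes GABA inhibitory, differed by 0.06 (interval -0.14 to 0.26). Gabbr2, a subunit of the metabotropic GABA receptor, had 11.54, 11.59 and 11.61 at 48 h and 11.17, 11.30 and 11.44 at 24 h without overlap (0.28, interval 0.06 to 0.49), but its second probe set differed by 0.02. The 12 genes of GABA synthesis, uptake and anchoring had a median of -0.05 with 3 above 0.

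Excitatory receptors and channels gave the same picture. The 21 measured glutamate receptor genes had a median of 0.01 with 12 above 0, and the interval of every one lay inside 2-fold. Grik4, a kainate receptor subunit, had 7.74, 7.78 and 7.72 at 48 h and 7.54, 7.44 and 7.63 at 24 h (0.21, interval 0.01 to 0.41). Of 34 sodium, potassium and calcium channel genes, 19 were above 0, 3 had every 48 h array above every 24 h array and 1 had every one below (against 3.97% and 3.47% of all genes), and the median was 0.01. Kcna2, a voltage-gated potassium channel of axons, had 10.22, 10.40 and 10.26 at 48 h and 9.86, 9.88 and 10.16 at 24 h (0.33, interval 0.08 to 0.57), and its second probe set differed by -0.05. Kcnma1, the large-conductance calcium-activated potassium channel, was chosen after its values were seen and had 9.51, 9.55 and 9.36 at 48 h and 9.72, 9.76 and 9.70 at 24 h. Scn2a, a neuronal sodium channel, differed by -0.10 (interval -0.32 to 0.12). The 26 genes of synaptic vesicle release had a median of -0.06 with 11 above 0.

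The best-known immediate early genes, Fos and Arc, spread widely among arrays of the same time, and their group means lay close together. Fos, a subunit of the AP-1 transcription factor, had 6.81, 7.69 and 8.93 at 48 h and 7.45, 7.54 and 8.76 at 24 h (log2 difference -0.11, interval -1.24 to 1.02). Arc, a regulator of synaptic glutamate receptors, had 7.16, 7.41 and 8.69 at 48 h and 7.26, 7.65 and 8.54 at 24 h (-0.06, interval -0.99 to 0.87). In each group replicate 3 was the highest, and the intervals of both genes reach about 2-fold or past it. Leaving out 1 array at a time moved Fos between -0.67 and 0.39 and Arc between -0.53 and 0.30. Nr4a1, an orphan nuclear receptor induced by activity, had 7.77, 7.82 and 8.78 at 48 h and 8.26, 8.31 and 8.75 at 24 h, again highest in replicate 3. Egr1, a zinc-finger factor with high resting levels in cortex, was tighter, at 11.22, 11.17 and 11.61 at 48 h and 11.32, 11.35 and 11.53 at 24 h (-0.07, interval -0.36 to 0.22). Over 29 measured immediate early genes, 12 were above 0, the median was -0.02 and 28 had intervals inside 2-fold. Inhba, the activin A subunit, had 8.22, 8.38 and 7.96 at 48 h and 7.89, 7.69 and 7.94 at 24 h without overlap (0.35, interval 0.07 to 0.63), but its second probe set differed by -0.06. Bdnf, the neurotrophin released by active neurons, had 7.48, 7.88 and 7.49 at 48 h and 7.52, 7.11 and 7.50 at 24 h.

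Circadian clock genes follow the hour of the day, and the labels do not give the hour of dosing or of sampling. Of 18 clock genes 9 were above 0 and 9 below, with a median of -0.05 and every interval inside 2-fold. Dbp, a clock output transcription factor, had 9.00, 8.54 and 8.86 at 48 h and 8.99, 9.39 and 9.42 at 24 h (-0.46, interval -0.81 to -0.12). Bmal1, a core activator of the clock, had 7.83, 8.37 and 8.29 at 48 h and 7.81, 7.82 and 7.93 at 24 h (0.31, interval -0.0048 to 0.62). For both genes replicate 1 at 48 h lay among the 24 h arrays and the other two 48 h arrays lay apart from them. Nfil3, a repressor that opposes Dbp at shared sites, was chosen after its values were seen and showed the same order, with 7.10, 7.62 and 7.69 at 48 h and 7.05, 7.05 and 7.26 at 24 h. Cry1, a repressor of the core loop that was also chosen after its values were seen, had 7.92, 8.14 and 7.94 at 48 h and 7.70, 7.74 and 7.86 at 24 h. Per2, the period repressor, had 9.26, 8.92 and 8.76 at 48 h and 8.97, 9.02 and 8.92 at 24 h (0.01, interval -0.28 to 0.30). Nr1d1, the repressor of Bmal1, differed by -0.21 (interval -0.45 to 0.04). None was called.

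A set of genes had been picked because they differed between 24 h and 0 h in an earlier analysis of these arrays. Their levels at 48 h were therefore set beside both times as a description, since the choice used the 24 h arrays. Nnat averaged 9.52, 10.56 and 10.02 at 0, 24 and 48 h. Rgs18, a regulator of G-protein signalling, averaged 5.08, 6.12 and 5.82, and Calb2, the calretinin of one class of interneurons, 7.89, 8.88 and 8.39. Bex4 averaged 7.68, 8.62 and 8.21. For these 4 genes the 48 h mean lay between the 0 h mean and the 24 h mean. The same held for Necab2, Arhgap6, Pbx3 and Nrcam, described next. A choice by the difference between 24 h and 0 h favours such a position. Necab2, a neuronal calcium-binding protein, averaged 8.27, 8.99 and 8.66, and Arhgap6, a GTPase-activating protein, 6.81, 7.94 and 7.37. Pbx3, a homeodomain transcription factor, had 9.25, 8.99 and 8.87 at 48 h, overlapping 9.14, 9.34 and 9.56 at 24 h. Nrcam, a neuronal adhesion molecule, had been lower at 24 h and had 10.28, 10.06 and 10.16 at 48 h against 9.67, 9.80 and 10.07 at 24 h. Its other probe sets differed by -0.05 and -0.15. The 0 h arrays had actin gaps of 3.18, 3.60 and 1.88, wider on 2 of 3 arrays than on any array at 24 or 48 h, and the part of that difference in the 0 h values was not tested.

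**Figure D3:**
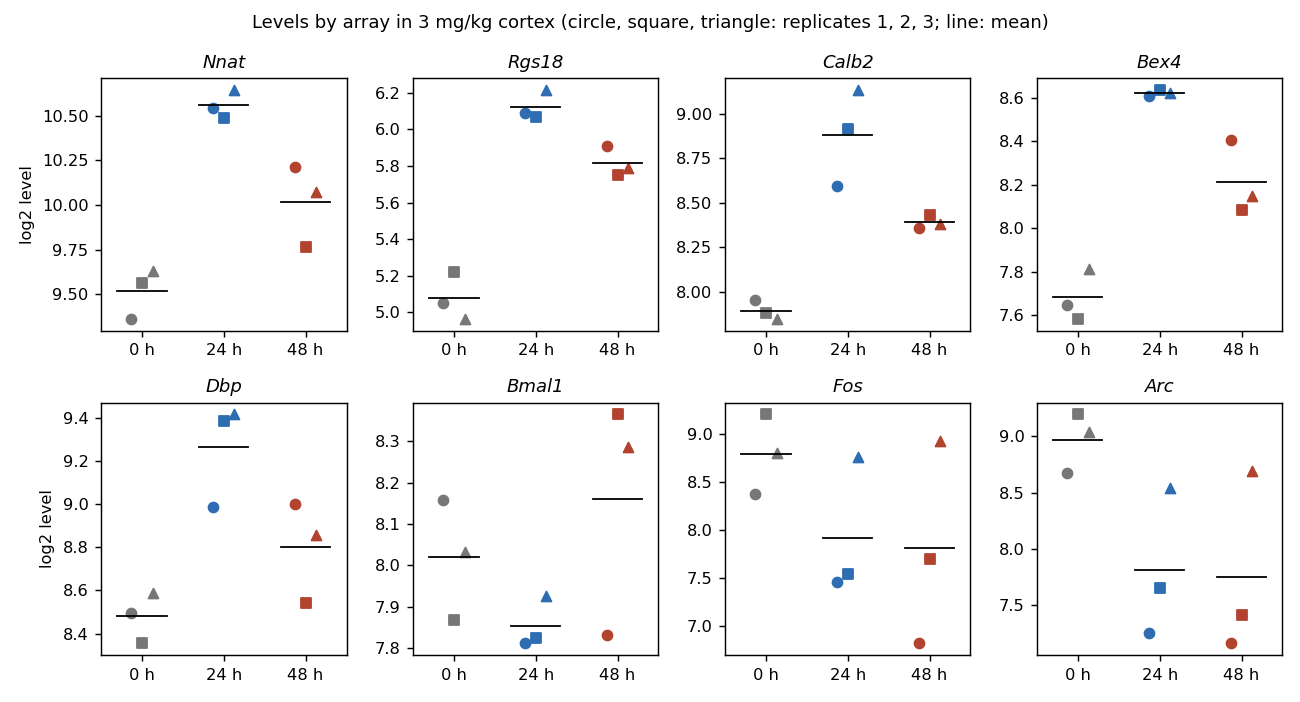
Log2 levels of 8 genes on each 3 mg/kg cortex array at 0, 24 and 48 h; circles, squares and triangles are replicates 1, 2 and 3, and lines are group means of 3 arrays. Nnat, Rgs18, Calb2 and Bex4 at 48 h lie below every 24 h array and above every 0 h array, while Fos and Arc spread over more than 1 log2 unit within each of the 2 later groups.

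Most gene lists were centred on 0. Of 33 lists, 29 had a median within 0.1 of 0, between -0.06 and 0.10, and no member of any list was called. The lists that stood apart held genes of other regions or tissues: striatum, thalamus and its neighbours, choroid plexus and liver.

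**Figure D4:**
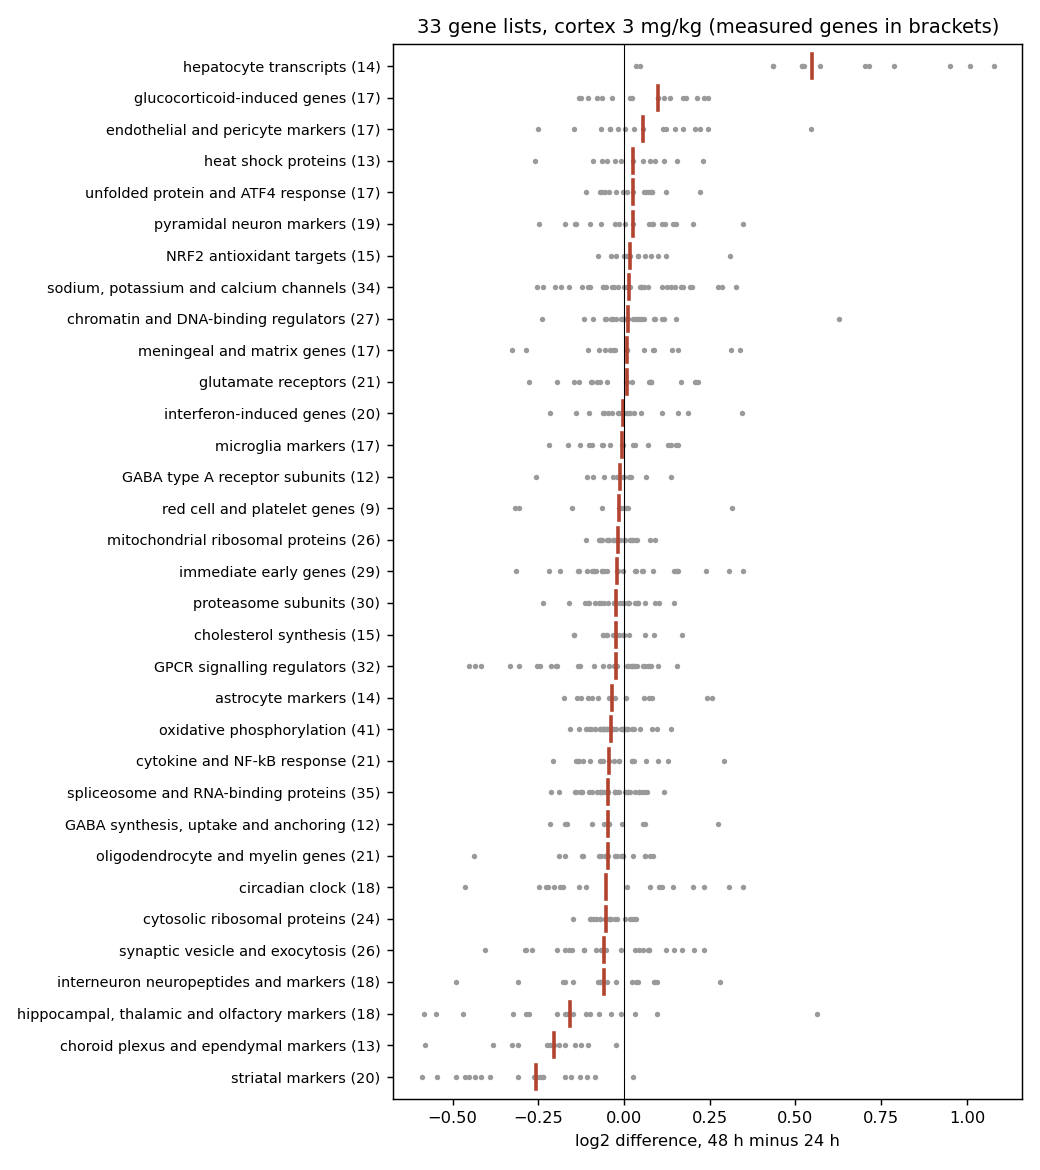
Each row is a gene list, with its number of measured genes in brackets; grey points are genes placed by their log2 difference, 48 h minus 24 h, and the coloured bar is the list median. The median is 0.55 for hepatocyte transcripts, -0.26 for striatal markers, -0.20 for choroid plexus and -0.16 for hippocampal, thalamic and olfactory markers, and within 0.1 of 0 in the other 29 lists.

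Striatal genes were lower at 48 h in 19 of 20 measured members, with a median of -0.26, and none was called. Their mean per array was 9.11, 8.58 and 8.89 at 48 h and 9.13, 9.16 and 9.17 at 24 h, so the 24 h arrays were alike and replicates 2 and 3 at 48 h were lower. Without replicate 2 at 48 h the median was -0.17, and over the 6 arrays left out in turn it ran from -0.43 to -0.17. Adora2a, the adenosine receptor of indirect-pathway neurons, had 8.74, 7.88 and 8.63 at 48 h and 8.92, 8.85 and 8.86 at 24 h. Drd1, the dopamine receptor of direct-pathway neurons, had 9.67, 8.72 and 9.29 at 48 h and 9.77, 9.72 and 9.65 at 24 h. Both genes were lowest in replicate 2. Ppp1r1b, the dopamine-regulated phosphatase inhibitor DARPP-32, had 10.39, 9.86 and 10.74 at 48 h and 10.96, 11.20 and 10.61 at 24 h. These 3 genes were picked once their values had been seen, and Penk, the enkephalin precursor, was fixed: 12.79, 12.22 and 12.39 at 48 h and 12.79, 12.80 and 12.74 at 24 h (-0.31, interval -0.62 to 0.0047). At 0 h the list mean ran from 7.88 to 8.89 between arrays of a single group. The part of striatal tissue in other differences was not tested.

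Genes of the thalamus and its neighbours were highest on replicate 3 at 24 h, with replicate 1 at 48 h next. The mean of the 18 measured hippocampal, thalamic and olfactory genes was 7.40, 7.02 and 6.98 at 48 h and 7.20, 7.09 and 7.58 at 24 h. Tcf7l2, a Wnt-pathway factor of thalamic neurons, had 10.01, 9.29 and 9.10 at 48 h and 9.45, 9.30 and 10.62 at 24 h. Slc17a6, the vesicular glutamate transporter of subcortical neurons, had 8.92, 8.55 and 8.16 at 48 h and 8.13, 8.52 and 9.84 at 24 h; both were picked with their values in view. The list median was -0.16, and -0.03 without replicate 3 at 24 h. Nr2f2, a nuclear receptor of caudal interneurons and thalamus, had 8.07, 7.82 and 7.97 at 48 h and 8.58, 8.09 and 8.59 at 24 h (-0.47, interval -0.80 to -0.15). The 13 choroid plexus and ependymal genes were all below 0, with a median of -0.20 and of -0.14 without that array. Igf2, a growth factor made in choroid plexus and meninges, had 9.85, 9.71 and 9.46 at 48 h and 9.90, 10.08 and 10.02 at 24 h, but its other 3 probe sets differed by -0.06 to -0.02.

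The same 24 h array alone held high levels of light-transduction genes, which are used by photoreceptors and by the pineal gland. The genes named here were picked once their values had been seen. Pde6g, an inhibitory subunit of the photoreceptor phosphodiesterase, had 6.12, 5.74 and 6.13 at 48 h and 6.40, 6.28 and 9.61 at 24 h. Gngt1, a transducin gamma subunit, had 4.16, 4.18 and 4.22 at 48 h and 4.09, 4.16 and 8.27 at 24 h. Gngt2 and Gnb3, the gamma and beta subunits of cone transducin, reached 9.23 and 8.28 on that array and at most 6.41 and 6.87 on the other 5. Asmt, the last enzyme of melatonin synthesis, had 4.74, 4.51 and 4.60 at 48 h and 4.73, 4.64 and 6.32 at 24 h. The hypothalamic hormone genes Oxt and Avp, which encode oxytocin and vasopressin, reached 9.28 and 9.47 on it as well. On replicate 1 at 48 h, Oxt and Avp had 7.20 and 6.99, and on the other 4 arrays at most 5.75 and 6.20. Between the group means, Pde6g differed by -1.43 (interval -3.08 to 0.22), Gngt1 by -1.32 (interval -3.39 to 0.75), Gngt2 by -1.13 (interval -2.59 to 0.32) and Gnb3 by -1.06 (interval -1.94 to -0.18). Without replicate 3 at 24 h these differences were -0.35 for Pde6g, 0.059 for Gngt1, -0.17 for Gngt2 and -0.55 for Gnb3.

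Liver transcripts were highest on replicate 1 at 48 h. All 14 hepatocyte genes were above 0, with a median of 0.55, and without that array the median was -0.13. Alb, serum albumin, had 12.19, 9.01 and 7.48 at 48 h and 7.99, 8.08 and 9.58 at 24 h, while the liver arrays lay between 14.05 and 14.39. Apoa1, the main protein of high-density lipoprotein, had 6.01, 4.53 and 4.48 at 48 h and 4.53, 4.43 and 4.50 at 24 h. The fibrinogen genes, Hp (haptoglobin) and the other apolipoprotein genes were also highest on that array. Rup2, a urinary protein of the liver that was chosen after its values were seen, had 11.5, 6.68 and 3.73 at 48 h and 4.12, 4.08 and 8.47 at 24 h, so it was also high on replicate 3 at 24 h.

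**Figure D5:**
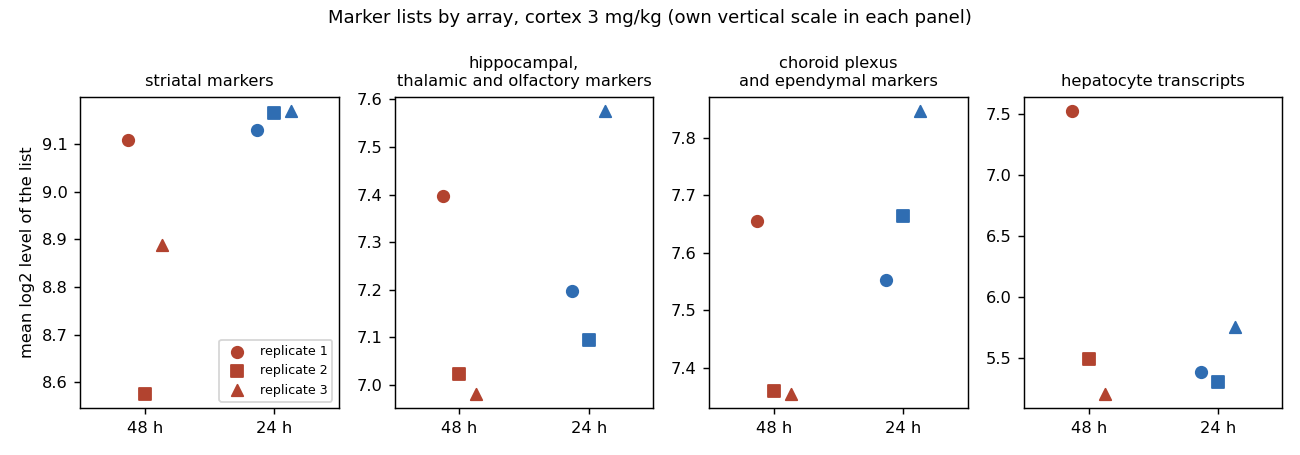
Mean log2 level of 4 marker lists on each cortex array, 48 h left of 24 h; marker shapes give the replicate, and each panel has its own vertical scale. Striatal markers are lowest on replicate 2 at 48 h (8.58), hippocampal, thalamic and olfactory markers and choroid plexus markers are highest on replicate 3 at 24 h (7.58 and 7.85), and hepatocyte transcripts are highest on replicate 1 at 48 h (7.53).

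Markers of the cells of the cortex itself differed little. The 19 pyramidal neuron genes had a median of 0.02, and Bcl11b, a transcription factor of deep-layer and striatal neurons, had 9.62, 9.31 and 9.45 at 48 h and 9.69, 9.71 and 9.72 at 24 h, while its other probe sets differed by -0.14 and 0.51. The 18 interneuron genes had a median of -0.06 with 7 above 0. Calb2 had 8.36, 8.43 and 8.38 at 48 h and 8.60, 8.92 and 9.14 at 24 h, and Vip, a peptide of another interneuron class that was chosen after its values were seen, had 10.32, 10.66 and 10.29 at 48 h and 10.12, 10.12 and 10.20 at 24 h. The 2 genes thus lay on opposite sides without overlap, and neither was called. Sst, somatostatin, and Npy, neuropeptide Y, differed by -0.18 (interval -0.50 to 0.14) and -0.07 (interval -0.32 to 0.18). Astrocyte genes (14) had a median of -0.03, oligodendrocyte genes (21) of -0.05 and microglia genes (17) of -0.01. Gfap, the astrocyte filament protein, had 10.84, 10.78 and 11.31 at 48 h and 11.07, 11.20 and 11.07 at 24 h. Mbp, a myelin protein, differed by 0.00 (interval -0.19 to 0.19), with other probe sets at -0.26 and -0.30. The 17 endothelial and pericyte genes had a median of 0.05, and Pecam1, an endothelial adhesion molecule, had 6.90, 7.12 and 7.06 at 48 h and 6.81, 6.73 and 6.79 at 24 h (0.24, interval 0.03 to 0.46).

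Stress and defence genes also differed little. The 17 glucocorticoid-induced genes had a median of 0.10 with 11 above 0, the highest median outside the liver list. Sgk1, a kinase induced by corticosterone, had 9.67, 9.69 and 9.70 at 48 h and 9.39, 9.33 and 9.71 at 24 h, and Fkbp5, a co-chaperone of the glucocorticoid receptor, had 8.22, 8.12 and 8.23 at 48 h and 8.03, 8.0 and 8.14 at 24 h (0.13, interval -0.07 to 0.33). Of the 15 targets of the antioxidant factor NRF2, 12 were above 0 with a median of 0.02. Srxn1, a sulfiredoxin among them, had 8.85, 9.05 and 9.08 at 48 h and 8.65, 8.66 and 8.74 at 24 h, but its other probe sets differed by 0.01 and 0.05. The 13 heat shock genes had a median of 0.03, the 20 interferon-induced genes of 0.00 and the 21 cytokine and NF-kB genes of -0.05. Icam1, a leukocyte adhesion molecule of the last list, had 6.16, 6.11 and 6.29 at 48 h and 5.90, 5.78 and 6.01 at 24 h (0.29, interval 0.07 to 0.51). Housekeeping lists had medians within 0.1 of 0: the median was -0.05 over 24 ribosomal protein genes, of which 5 were above 0, and that of 41 oxidative phosphorylation genes was -0.04 with 11 above 0. Rpl21, a protein of the large ribosomal subunit, had 12.36, 12.47 and 12.29 at 48 h and 12.48, 12.61 and 12.46 at 24 h.

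The change after 3 mg/kg was tested against the change after 18 mg/kg over 12 cortex arrays. In limma 0 of 31042 probe sets differed between the doses, 974 (3.14%) had an unadjusted p under 0.05, and the smallest adjusted p was 0.337. Simulated dose differences of 1 log2 unit were called in 43.3% of cases and those of 0.5 in 2.99%, so differences of these sizes could be missed. The 18 mg/kg arrays were less alike in RNA quality, with actin gaps of 4.61, 2.95 and 4.39 at 48 h and 2.08, 4.18 and 3.64 at 24 h. Their hepatocyte means were 5.34, 10.2 and 10.6 at 48 h and 7.68, 5.42 and 5.45 at 24 h, and the part of either in the dose test was not tested. The standard error of the dose difference had a median of 0.194, against 0.107 for the change at 3 mg/kg alone. Nnat differed by -0.54 at 3 mg/kg and 0.02 at 18 mg/kg, Calb2 by -0.49 and -0.16, and Scn2a by -0.10 and 0.66. The interval of the dose difference was -1.08 to -0.05 for Nnat, -0.73 to 0.07 for Calb2 and -1.09 to -0.43 for Scn2a, all before adjustment. Of the 10 genes of smallest p on the higher side, only Mfap3 (0.22) was above 0 at 18 mg/kg. Hdac4 differed by -0.34 there, Pnpla1 by -0.58, Sprr1a by -0.59 and Col6a1 by -0.05. On the lower side only Nnat, Rpl39l1 and Prg2 were above 0 at 18 mg/kg. A choice by the difference at 3 mg/kg favours smaller values at the other dose. Without replicate 1 at 48 h of the 18 mg/kg group, 167 probe sets were called. For 166 of them the change from 24 h to 48 h was lower at 3 mg/kg than at 18 mg/kg. Liver means were more than 2-fold above cortex means for 166.

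The change in cortex was also tested against the change in liver after 3 mg/kg over 12 arrays. In limma 0 of 31042 probe sets differed between the tissues, 1360 (4.38%) had an unadjusted p under 0.05, and the smallest adjusted p was 0.573. With this fit simulated differences of 1 log2 unit were called in 41.8% of cases, so differences of that size between the tissues could be missed. Nr1d1 differed by -0.21 in cortex and -1.05 in liver, and Bmal1 by 0.31 and 0.72. Col6a1 differed by 0.65 in cortex and 0.41 in liver. Of the other genes of smallest p on the higher side in cortex, Mfap3, Cdpf1, Birc2, Dbndd1 and Spg7 were also above 0 in liver. Hdac4 (-0.10), Pnpla1 (-0.25), Sprr1a (-0.09) and Catsperz (-0.06) were below 0 there.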

How the data were processed

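The authors measured biotin-labelled cortex RNA on an Affymetrix rat array. Their deposited values are log2 levels made with RMA and Partek, per the submitters' processing notes, which give no version or settings. RMA makes array distributions alike, so a shift shared by most transcripts would be reduced. The values were used without further scaling, and 57 control probe sets were left out. Of 31042 probe sets, 20826 had 1 gene symbol, 436 several and 9780 none in the platform annotation.

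Fits were made with limma 3.58.1 (R 4.3.3) on the 6 arrays compared, or on 12 for the dose and tissue differences, two-sided, with Benjamini-Hochberg adjustment over all probe sets and a threshold of 0.05. The number of arrays limits the precision. Recovery was tested on simulated data with independent probe sets.

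For each gene the single-symbol probe set of highest cortex mean was used, without genes that have only a LOC or RGD name. Named were the 10 genes of smallest p on each side, the member of smallest p of each of 33 lists, and 31 fixed genes. Members, lists and rule were chosen with earlier results of these data known. Other named genes, and probe sets printed by number, were chosen after their values were seen. One planned neuron marker is not reported here. Alternatives changed the normalization, the filter, the variance model, the arrays in the fit and the blocking.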

Additional observations from a re-analysis of the deposited data

How the results depend on the processing

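With 3 arrays a group the interval of a typical gene is narrow, but genes that vary between arrays (Fos, Arc, and transcripts of liver, thalamus or photoreceptor type) are bounded only loosely. The count of 0 called probe sets for 48 h against 24 h held under quantile normalization, median centring, a filter to brighter probe sets, 1 probe set per gene, trended robust variances, the actin gap as covariate and all 24 cortex arrays. It was 1 (1391262_at, limma adjusted p = 0.024) with the 12 cortex arrays of the 3 mg/kg arm, 13 (10 higher and 3 lower, Hdac4 and Cdpf1 among them at adjusted p = 0.033) with array weights, whose estimation did not converge, and 9 (6 higher and 3 lower) without replicate 1 at 48 h and replicate 3 at 24 h, an alternative chosen after seeing the data. Leaving out 1 array at a time gave 0 to 2: 1 without replicate 1 at 48 h, 2 without replicate 2 at 48 h and 1 without replicate 3 at 24 h. Deviations of same-numbered arrays had correlations of 0.12, -0.17 and -0.30, and those of differently numbered arrays ran from -0.29 to 0.35. These values show no pairing by number but cannot exclude it, and the labels do not settle it. The replicate block gave 0 called. The dose difference gave 0 under every alternative, the replicate block included, except that leaving out 1 array gave 0 to 167, and the tissue difference gave 0 except that leaving out 1 array gave 0 to 3. The number at an unadjusted p under 0.05, 835 here, was 2699 without replicate 3 at 24 h, 396 with all 24 cortex arrays and 6887 with array weights. The direction of some named genes turned. Per2 was -0.014 under quantile normalization, and Slc17a6 was 0.012 with the actin gap. With array weights Avp was 0.12, Oxt 0.065, Tcf7l2 0.13, Slc17a6 0.00015, Fos 0.30, Arc 0.14 and Per2 -0.049. Without replicate 1 at 48 h and replicate 3 at 24 h, Gngt1 was 0.075, Nr4a1 0.019, Slc17a6 0.029, Egr1 0.052, Fos 0.81, Arc 0.60 and Per2 -0.16. Leaving out 1 array turned 13 genes, with ranges of -0.31 to 2.05 for Alb, -0.53 to 0.30 for Arc, -1.49 to 0.16 for Avp, -0.20 to 0.016 for Egr1, -0.67 to 0.39 for Fos, -2.03 to 0.059 for Gngt1, -0.023 to 0.031 for Mbp, -0.15 to 0.0063 for Npy, -1.69 to 0.14 for Oxt, -0.13 to 0.12 for Per2, -0.35 to 3.54 for Rup2, -0.64 to 0.22 for Slc17a6 and -0.60 to 0.091 for Tcf7l2. The causes were not tested.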
